A study of Homo sapiens with 2 samples.

Results

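The tight junction and apical polarity genes described here were 39 named genes: 18 claudins, 4 MARVEL-domain and tricellular genes, 4 cytoplasmic scaffold genes, 3 junctional adhesion molecules, and 10 genes of the Crumbs, PAR and Scribble polarity modules. The rule takes them by name, although the list was drawn up with earlier results of these data known, and each was read from the array probes whose RefSeq accession belonged to it. All 39 had a probe, out of 22439 genes with a named probe, and together they had 49 probes. Their messenger RNA was read in H9, a line of human embryonic stem (ES) cells, on 2 one-colour Agilent arrays, with 1 array for substate 1 at passage 35 and 1 for substate 2 at passage 50. Per the labels both were kept on Matrigel in TeSR-E8 medium, to which the study's methods move cells from vitronectin at passage 35, with no transgene and no added agent given for either. Per the study, substate 1 is the typical colony that stains strongly for the R-10G epitope and not for vimentin, and substate 2 is the vimentin-positive colony with weaker R-10G staining and wide spaces between the cells. The comparison addresses how the messenger RNAs of the seal between neighbouring cells differed between these colonies. With 1 array per substate no difference has a replicate check and no test was possible, and passage, the time spent on Matrigel and substate cannot be told apart.

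Tight junctions close the space between epithelial cells at the border of the apical and lateral membranes. Claudins form the paired strands that set which ions pass, occludin and its MARVEL relatives sit in the same strands, and ZO proteins and cingulins tie them to actin. The Crumbs and PAR complexes hold the apical domain and the Scribble module holds the basolateral one, and human ES cells, which grow as an epithelial sheet, carry such junctions.

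In these libraries part of the junction genes were lower in substate 2, and they came from every role except the PAR complex. Of the 35 measured members, 12 were lower by 0.5 or more on the log2 scale, 22 lay within 0.5 of 0 and 1 was higher by 0.5 or more. The 12 were the claudins CLDN3, CLDN4 and CLDN7, the MARVEL genes OCLN, MARVELD2 and MARVELD3, the cingulins CGN and CGNL1, the adhesion molecule F11R, the Crumbs complex genes CRB3 and PATJ, and LLGL2 of the Scribble module. The exception on the high side was CLDN11. Among all 15996 measured genes, 6.85% were lower by 0.5 or more and 7.13% were higher by as much. The band of 0.5 was chosen after the values were seen, and no member lay between OCLN at −0.51 and TJP3 at −0.24.

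Promoter windows are shown for members of both kinds, because the E-box read as CACCTG on one strand and CAGGTG on the other is the textbook binding motif of ZEB and SNAI repressors, and ZEB1 differed between these libraries. The part of ZEB1 in the values of the members was not tested. The windows are examples, and those of CRB3 and CLDN7 have the highest match count of any member window. Each window runs from 250 bases before to 50 bases after a RefSeq start site in GRCh38.p14, 5′ to 3′ on the strand of the gene. The capitals mark CACCTG or CAGGTG. CRB3 and CLDN7 were lower in substate 2 and had 5 matches each, CLDN4 was lower and had 0, PRKCZ stayed within 0.5 of 0 and had 3, and CLDN11 was higher and had 0. The CRB3 window lies at chr19:6464021-6464320 on the plus strand, that of the second CLDN7 start site at chr17:7262429-7262728 on the minus strand, and that of CLDN4 at chr7:73830746-73831045 on the plus strand. The window of the second PRKCZ start site lies at chr1:2050161-2050460 and that of the first CLDN11 start site at chr3:170418618-170418917, both on the plus strand.
CRB3: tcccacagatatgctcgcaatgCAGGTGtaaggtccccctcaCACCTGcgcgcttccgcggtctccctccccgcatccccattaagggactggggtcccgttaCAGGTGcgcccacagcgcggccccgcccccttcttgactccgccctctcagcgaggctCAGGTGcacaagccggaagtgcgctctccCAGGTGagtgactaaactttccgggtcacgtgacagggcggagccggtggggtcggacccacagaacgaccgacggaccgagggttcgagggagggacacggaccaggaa
CLDN7: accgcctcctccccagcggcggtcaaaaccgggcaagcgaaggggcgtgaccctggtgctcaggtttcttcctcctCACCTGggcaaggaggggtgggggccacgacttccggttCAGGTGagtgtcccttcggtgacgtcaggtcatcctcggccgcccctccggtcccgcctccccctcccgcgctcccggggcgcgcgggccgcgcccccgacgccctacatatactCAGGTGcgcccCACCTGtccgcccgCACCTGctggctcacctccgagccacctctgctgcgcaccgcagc
CLDN4: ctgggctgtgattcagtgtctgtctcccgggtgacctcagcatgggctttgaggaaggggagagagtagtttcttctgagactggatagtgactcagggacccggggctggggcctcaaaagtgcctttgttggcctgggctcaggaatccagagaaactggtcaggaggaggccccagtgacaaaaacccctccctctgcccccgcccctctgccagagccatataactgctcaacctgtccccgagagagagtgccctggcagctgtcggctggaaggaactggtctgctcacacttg
PRKCZ: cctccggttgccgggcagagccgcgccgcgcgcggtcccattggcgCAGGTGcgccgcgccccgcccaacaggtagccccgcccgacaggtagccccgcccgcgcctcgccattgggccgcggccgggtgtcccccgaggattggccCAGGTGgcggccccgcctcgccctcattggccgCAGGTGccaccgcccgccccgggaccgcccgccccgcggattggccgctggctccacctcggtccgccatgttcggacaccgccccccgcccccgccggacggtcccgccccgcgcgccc
CLDN11: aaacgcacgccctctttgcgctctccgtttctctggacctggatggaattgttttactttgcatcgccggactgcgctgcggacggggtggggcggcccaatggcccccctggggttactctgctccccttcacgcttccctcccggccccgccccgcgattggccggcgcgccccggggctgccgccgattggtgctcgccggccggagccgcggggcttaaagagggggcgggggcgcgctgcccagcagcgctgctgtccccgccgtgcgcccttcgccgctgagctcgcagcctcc

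All values below are log2 signals relative to the 75th percentile of the same array, and a difference is substate 2 minus substate 1. A level describes its own probe and is not set against that of another gene. A gene counts as measured where a probe was well above background on both arrays. This held for 35 members, and CLDN8, CLDN14, CLDN16 and CLDN18, which are claudins best known from differentiated epithelia, were near background on both arrays. The share of non-control spots that passed the background flag was 57.4% for substate 1 and 54.7% for substate 2, and no spot was saturated. Probes printed several times had an SD of the difference between spots of 0.0709 (288 probes), and the scanner software gave the difference of a member read by 1 probe an error of 0.204 to 0.262. Neither error covers the cells, the RNA or the labelling. The median measured gene differed by 0.08 (SD over genes 0.38). As to the labelled cell type, 9 pluripotency genes, POU5F1, NANOG and SOX2 among them, were measured on both arrays and each differed by less than 0.5, with a median of 0.18.

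**Figure D1:**
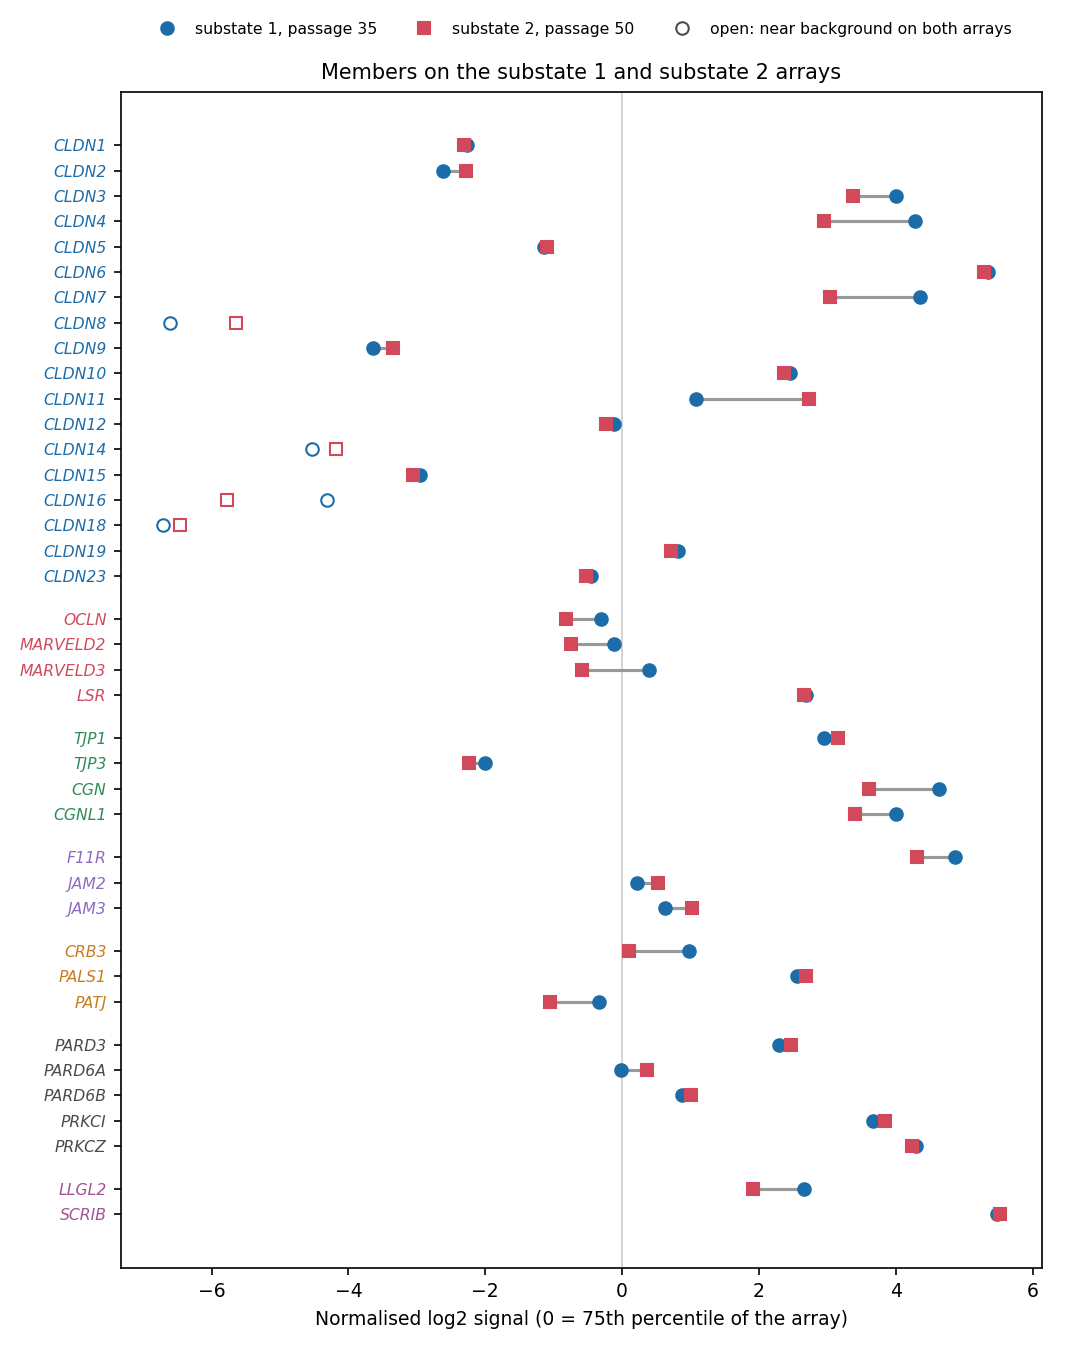
Normalised log2 signal (x axis, 0 is the 75th percentile of each array) of the 39 members, grouped by role, on the substate 1 array (blue circles) and the substate 2 array (red squares). Open symbols are the 4 members near background on both arrays. The long bars to the left are CLDN4, CLDN7, CGN and MARVELD3, the long bar to the right is CLDN11, and the 5 PAR complex genes hardly move.

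Among the claudins, 3 of the 14 measured ones were lower in substate 2 by 1.5-fold or more, where 5.03% of all measured genes were, and 1 was higher, where 4.31% were. CLDN4, an epithelial claudin that limits sodium passage, had a signal of 6069 ± 607 (software error, single probe) in substate 1 and 2120 ± 212 in substate 2. On the normalised scale CLDN4 stood at 4.27 and 2.94, a difference of −1.33 (2.51-fold), and 0.325% of all measured genes were lower still. CLDN7, which is also found along the lateral membrane, had signals of 6426 ± 643 and 2267 ± 227. Its normalised values were 4.36 and 3.04, a difference of −1.31 (2.49-fold). Both differences were over 6 times the software error of a difference, 0.204. CLDN3, a sealing claudin, was at 4.01 in substate 1 and 3.37 in substate 2, a difference of −0.64 (1.55-fold).

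CLDN11, the claudin of myelin and of the Sertoli cell barrier, went the other way. Its signal went from 664 ± 66.5 in substate 1 to 1821 ± 182 in substate 2. The normalised values of 1.08 and 2.73 gave a difference of 1.64 (3.12-fold), above 99.8% of measured genes. It was the single member past 1.5-fold on the high side.

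The other 10 measured claudins lay within 0.5 of 0. CLDN6, an early embryonic claudin used as a surface marker of pluripotent cells, was at 5.34 and 5.29, a difference of −0.05. CLDN10, which forms ion-selective pores, was at 2.46 and 2.36. CLDN1, the barrier claudin of skin, was at −2.27 and −2.31, and CLDN5, that of endothelium, at −1.14 and −1.10. The pore-forming CLDN2 was the highest of these by difference at 0.34, followed by CLDN9 at 0.29, whose 2 probes gave 0.23 and 0.35. CLDN12, CLDN15, CLDN19 and CLDN23 differed by −0.12, −0.11, −0.11 and −0.08, and the 2 probes of CLDN19 disagreed in sign (−0.39 and 0.16).

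Claudin genes that lie next to each other differed by unequal amounts. CLDN3 and CLDN4 are neighbours on chromosome 7 and were both lower, but by −0.64 and −1.33, while the genes on their outer sides, METTL27 and ABHD11, differed by 0.01 and 0.22. CLDN6 and CLDN9, neighbours on chromosome 16, differed by −0.05 and 0.29, and TNFRSF12A beside CLDN6 by −0.08. CLDN11 lies on chromosome 3 with 1 protein-coding gene, SKIL, between it and the member PRKCI. SKIL differed by 0.17 and PRKCI by 0.18, against 1.64 for CLDN11.

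The MARVEL-domain genes were lower together. MARVELD3, a regulator of junctional signalling, went from 0.39 in substate 1 to −0.59 in substate 2, a difference of −0.98 (1.97-fold) with 2 probes at −1.07 and −0.90. MARVELD2 (tricellulin), which closes the points where cells meet in threes, went from −0.12 to −0.74, a difference of −0.63. OCLN (occludin) went from −0.31 to −0.81, a difference of −0.51, and its 2 probes gave −0.58 and −0.44. OCLN has a near copy, the pseudogene OCLNP1, and whether its probes also detect that transcript was not checked. MARVELD2 and OCLN lie on chromosome 5 with no protein-coding gene between them. LSR, the receptor that recruits tricellulin, stayed at 2.69 and 2.66, a difference of −0.03. The median over these 4 genes was −0.57, and all 4 were below the median measured gene.

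The scaffold genes split by family. The cingulins, which link the junction to actin and microtubules, were both lower in substate 2. CGN had signals of 7770 ± 777 and 3348 ± 335, normalised values of 4.63 and 3.60 and a difference of −1.03 (2.04-fold). Its relative CGNL1 had signals of 5010 ± 501 and 2902 ± 290, a normalised difference of −0.60 (1.52-fold). TJP1 (ZO-1), the scaffold on which claudin strands assemble, was at 2.95 and 3.15, a difference of 0.20, and TJP3 (ZO-3), its epithelial relative, differed by −0.24. The differences of TJP1 and TJP3 were at about the software error.

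The junctional adhesion molecules are immunoglobulin-type receptors that recruit PAR proteins to the junction, and they did not move one way. F11R (JAM-A), the epithelial member, went from 4.86 to 4.31, a difference of −0.55, and its 2 probes gave −0.61 and −0.49. JAM2 went from 0.22 to 0.52, with 3 probes between 0.21 and 0.49, and JAM3 went from 0.63 to 1.02, a difference of 0.39. JAM2 and JAM3, which are best known from endothelium, thus stayed within 0.5 of 0, at 0.30 and 0.39, while F11R was lower by 0.5 or more. The median measured gene was at 0.08. Of 10 endothelial markers 5 were measured on both arrays, KDR at −0.71, TEK at −0.93, CDH5 at 0.32, TIE1 at 0.50 and VWF at −0.03. ESAM passed the background flag in substate 1 only, and PECAM1, ERG, EMCN and CLEC14A were near background on both arrays. The summed signal of all 10 markers, dim ones included, was 6.58 and 4.58 times the 75th percentile. Their part in the values of JAM2 and JAM3 was not tested.

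Of the Crumbs complex, the membrane protein and one adaptor were lower and the other adaptor was not. CRB3, the epithelial Crumbs protein, had signals of 619 ± 62.0 and 295 ± 29.7, normalised values of 0.98 and 0.10 and a difference of −0.88. PATJ, the multi-PDZ adaptor, went from −0.33 to −1.06, a difference of −0.73. PALS1, which bridges CRB3 and PATJ, was at 2.56 and 2.69, a difference of 0.13. In the Scribble module LLGL2, the epithelial Lethal giant larvae homologue, went from 2.66 to 1.91, a difference of −0.75 with 2 probes at −0.77 and −0.74. SCRIB itself was at 5.48 and 5.52, a difference of 0.04.

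The PAR complex genes formed the one role in which no member was lower by 0.5. PARD3, the scaffold of the complex, was at 2.30 and 2.46, a difference of 0.17. The kinases PRKCI and PRKCZ differed by 0.18 and −0.07, and the adaptors PARD6A and PARD6B by 0.38 and 0.12. The median of the 5 genes was 0.17, against 0.08 for all measured genes.

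**Figure D2:**
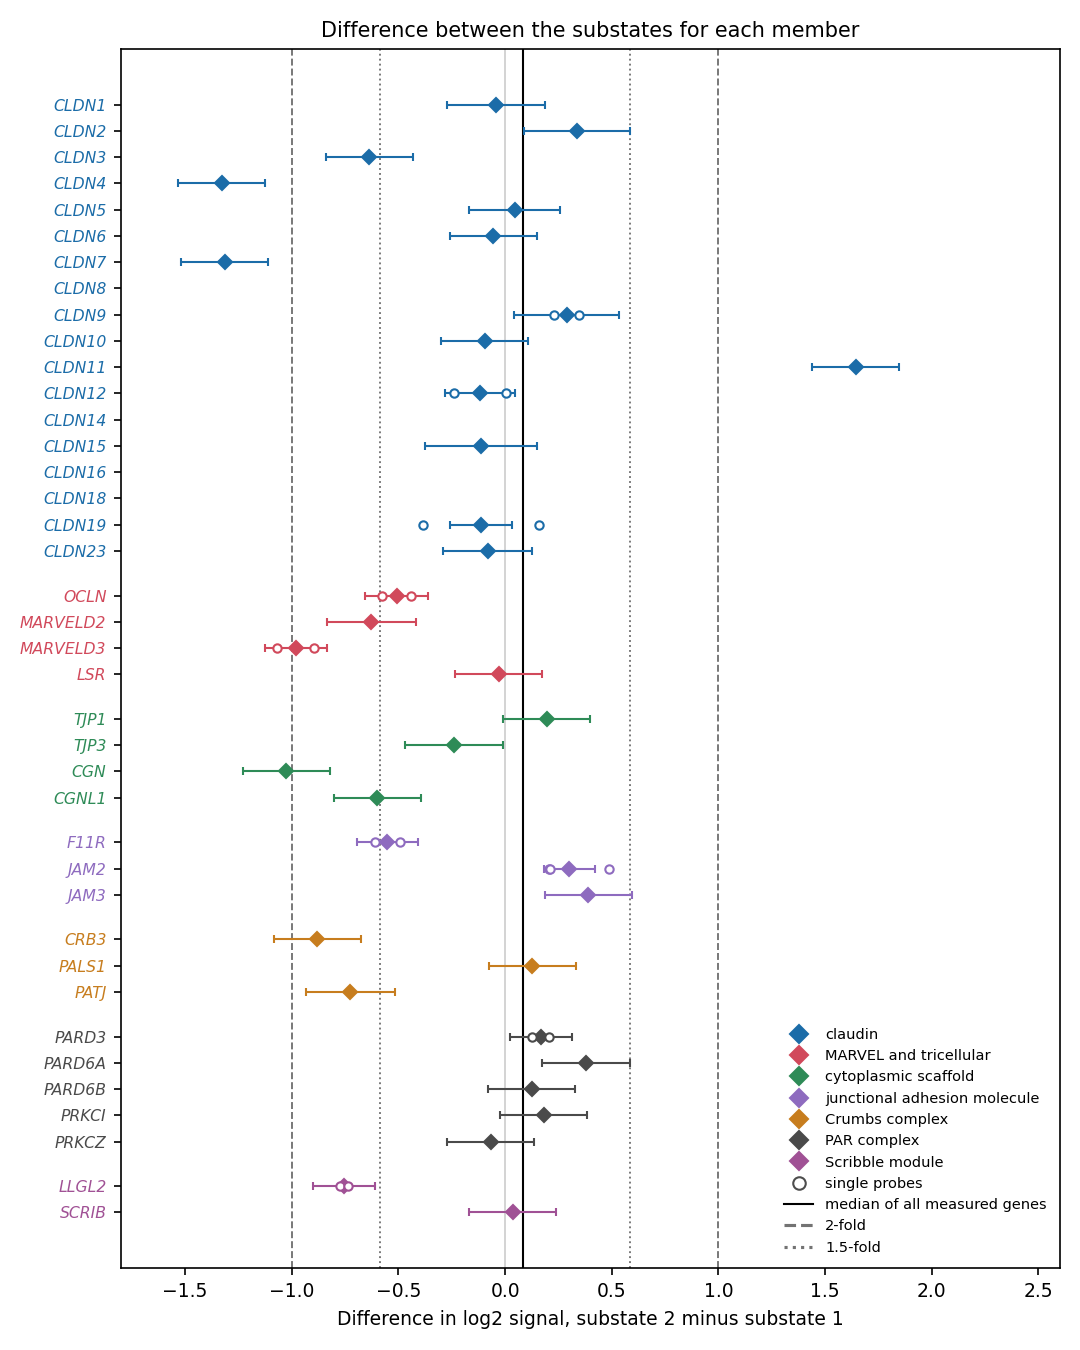
Difference in log2 signal (x axis, substate 2 minus substate 1) for each measured member by role, with bars for the software error of the difference and white circles for single probes of members with several. The 2-fold (dashed) and 1.5-fold (dotted) limits and the median of all measured genes at 0.08 (black line) are drawn. CLDN4, CLDN7 and CGN lie beyond the lower 2-fold line, MARVELD3 just short of it, and CLDN11 far to the right.

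By fixed rules of size, 3 of the 35 measured members were lower by 2-fold or more (CLDN4, CLDN7 and CGN), where 1.06% of all measured genes were. On the high side there was 1 member, CLDN11, where 0.931% of all measured genes were. Just past the lower limit was CGN at −1.03 and just short of it MARVELD3 at −0.98, and both lay nearer to the limit than their software errors of 0.204 and 0.146. At 1.5-fold, a limit added after the values were seen, 10 members were lower, against 5.03% of genes, and 1 was higher, against 4.31%. Here CGNL1 at −0.60 was just past the limit and F11R at −0.55 just short of it. The median member nevertheless differed by only −0.08, and 24 of the 35 lay below the median gene, where 50.0% of genes do. By the Z-score of the study's methods, with limits of −1.19 and 1.34, 3 of the 49 member probes were past the lower limit, where 3.30% of all probes were, and 1 was past the upper limit, where 3.03% were. The 3 were those of CLDN4, CLDN7 and CLDN16, the last of which was near background on both arrays. Among the 9 members with several measured probes, 7 had all probes of the same sign, and the median gap between probes of a gene was 0.13 (11 pairs), against 0.16 over all genes (6685 pairs).

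The members were set beside further lists of junction genes. Of 20 other measured tight junction genes none was past 1.5-fold in either direction, and the median was 0.08. Of 23 other polarity genes 1 was lower by 1.5-fold, DLG2, a membrane-associated guanylate kinase, at −0.80, and the median was 0.03. Also among the lowest in those lists were the kinase MARK1 at −0.38, the sialomucin PODXL at −0.35 and the adaptor MPP7 at −0.30. The highest were ARHGEF18 at 0.46, PALS2 at 0.42, NHERF1 at 0.41, PARD6G at 0.36 and CDC42 at 0.35. The difference between these lists and the members was not tested.

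**Figure D3:**
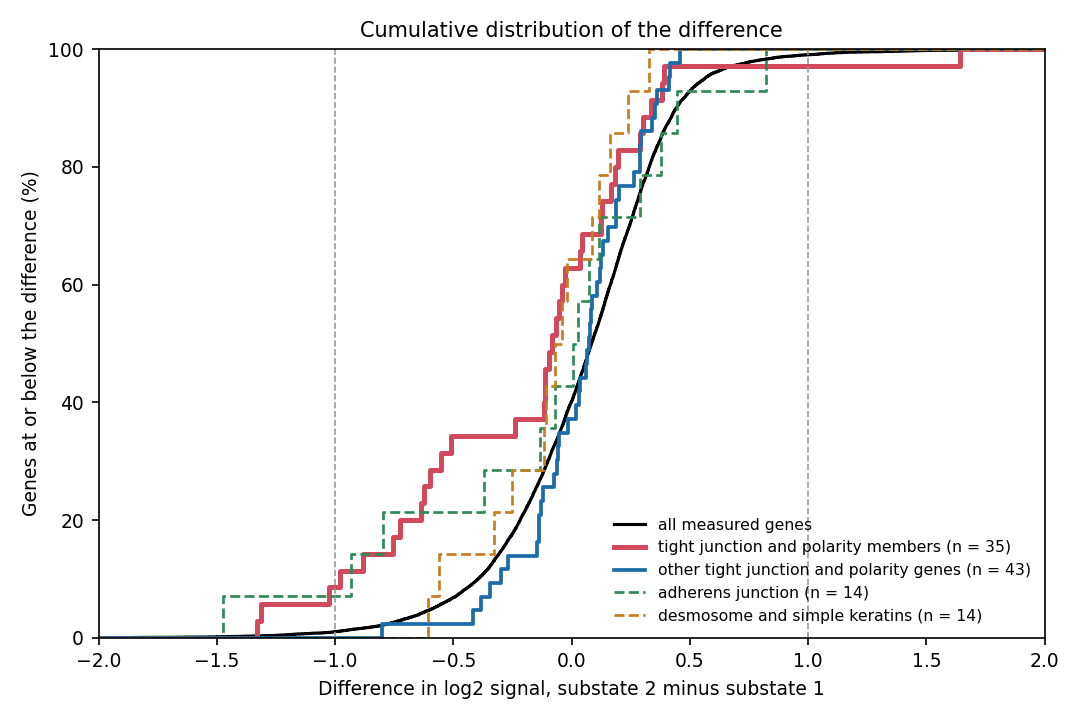
Cumulative share of genes (y axis, percent) at or below a difference in log2 signal (x axis, substate 2 minus substate 1) for all measured genes, the 35 members and further lists of junction genes. XIST and Y-linked genes are not drawn, and the dashed lines mark 2-fold. The member curve climbs early, through the 12 genes at −0.5 or lower, and is flat up to TJP3 at −0.24. It then climbs again and still lies above the curve of all genes at their median (24 of 35 members below it, against 50.0%). The curve of the other tight junction and polarity genes follows all genes.

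Other epithelial genes were read beside the members. CDH1 (E-cadherin), on which epithelial adhesion rests, was at 4.91 and 3.44, a difference of −1.47, and EPCAM was at 6.37 and 5.57, a difference of −0.80. Of 14 measured adherens junction genes CDH1 alone was past 2-fold, CDH3 (P-cadherin) was at −0.93, CDH2 (N-cadherin) at 0.82, and the median was 0.02. Among 14 desmosome and simple keratin genes none was past 2-fold, 1 was lower by 1.5-fold (PPL, periplakin, at −0.61), DSP (desmoplakin) differed by −0.25 and the median was −0.06. Of 13 regulators of epithelial genes 3 were lower (TFAP2C at −1.86, OVOL1 at −1.40 and GRHL2) and 1 higher by 2-fold or more. The higher one was ZEB1, a repressor of epithelial genes, which went from −2.34 to 0.19, a difference of 2.54 with 2 probes at 2.41 and 2.67. GRHL2, an activator of epithelial genes, went from 0.15 to −0.97, a difference of −1.12 by the 1 of its 2 probes that was measured, and the splicing factor ESRP1 from 1.05 to 0.49, a difference of −0.55.

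Markers of other cell types were read on the same arrays. Of 10 mesenchymal markers 8 were measured on both arrays, 1 of them higher by 2-fold, VIM at 2.53, with CDH2 at 0.82 and SPARC at −0.72, while FN1 passed the background flag in substate 1 only and COL3A1 was near background. The summed signal of that list, in multiples of the 75th percentile, was 206 in substate 1 and 230 in substate 2. THY1 had the highest log2 value in that sum, 7.26 and 7.15, and VIM went from 3.16 to 5.68. Of 10 neural progenitor markers 5 were measured on both arrays, of which LHX2 at 2.32 and FABP7 at 1.44 were past 2-fold, and SOX1, HES5 and POU3F2 passed the background flag in substate 2 only. PAX6 and ZIC1 were near background, and the summed signal was 30.1 and 43.1. Of the other mesenchymal markers, TWIST1 differed by 0.52 and PDGFRB by 0.21, but COL1A2 by −0.50, COL1A1 by −0.49 and THY1 by −0.11. The median of the measured mesenchymal markers was 0.05. Of the other neural markers measured on both arrays, SOX11 differed by 0.45, NES by 0.38 and OTX2 by −0.04. The part of these markers in the values of the junction genes and of CLDN11 was not tested. In a bulk library, fewer cells with a transcript and less of it per cell cannot be told apart.

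Promoter windows were held for 26 of the 39 members, with 42 start sites. No window was held for CLDN5, CLDN8, CLDN9, CLDN19, CLDN23, MARVELD3, F11R, JAM2, JAM3, PARD3, PARD6B, LLGL2 and SCRIB. The E-box CACCTG or CAGGTG, counted on both strands, was present in 13 of the 26 members (50.0%), in 24.1% of all 27305 genes with a window and in 24.8% of the 12346 of them measured on both arrays. Of the members lower by 0.5 or more 5 of 9 held it (CLDN3, CLDN7, OCLN, CRB3 and PATJ), and of those within 0.5 of 0 5 of 13 did. The other 3 holders were CLDN14, CLDN16 and CLDN18, near background on both arrays. CLDN4, CGN, CGNL1 and MARVELD2 were lower and had no match. Counted per window, since a gene can have several start sites, the share was 38.1% for members and 20.6% in all. Windows with 5 or more matches were 2 of 42 for members, the CRB3 and CLDN7 windows printed above, and 0.09% of 35116 windows in all. That limit is the highest count of any member window, so the comparison is not a test. With 3 or more matches there were 4 of 42 member windows, against 0.64% in all. These took in the PATJ window and the second PRKCZ window, whose gene differed by −0.07. The printed CLDN7 window is that of its second start site, and its first had 0 matches. Any E-box of the form CANNTG, which includes the former, was in 19 of the 26 members (73.1%), in 73.1% of all genes and in 68.6% of measured genes. The GC box GGGCGG, read on both strands, was in 22 of 26 members (84.6%), in 48.3% of all genes and in 72.8% of measured genes. It was in 9 of the 9 lower members and in 10 of the 13 within 0.5 of 0 (76.9%). A match is a run of letters and not evidence that a factor binds there.

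**Figure D4:**
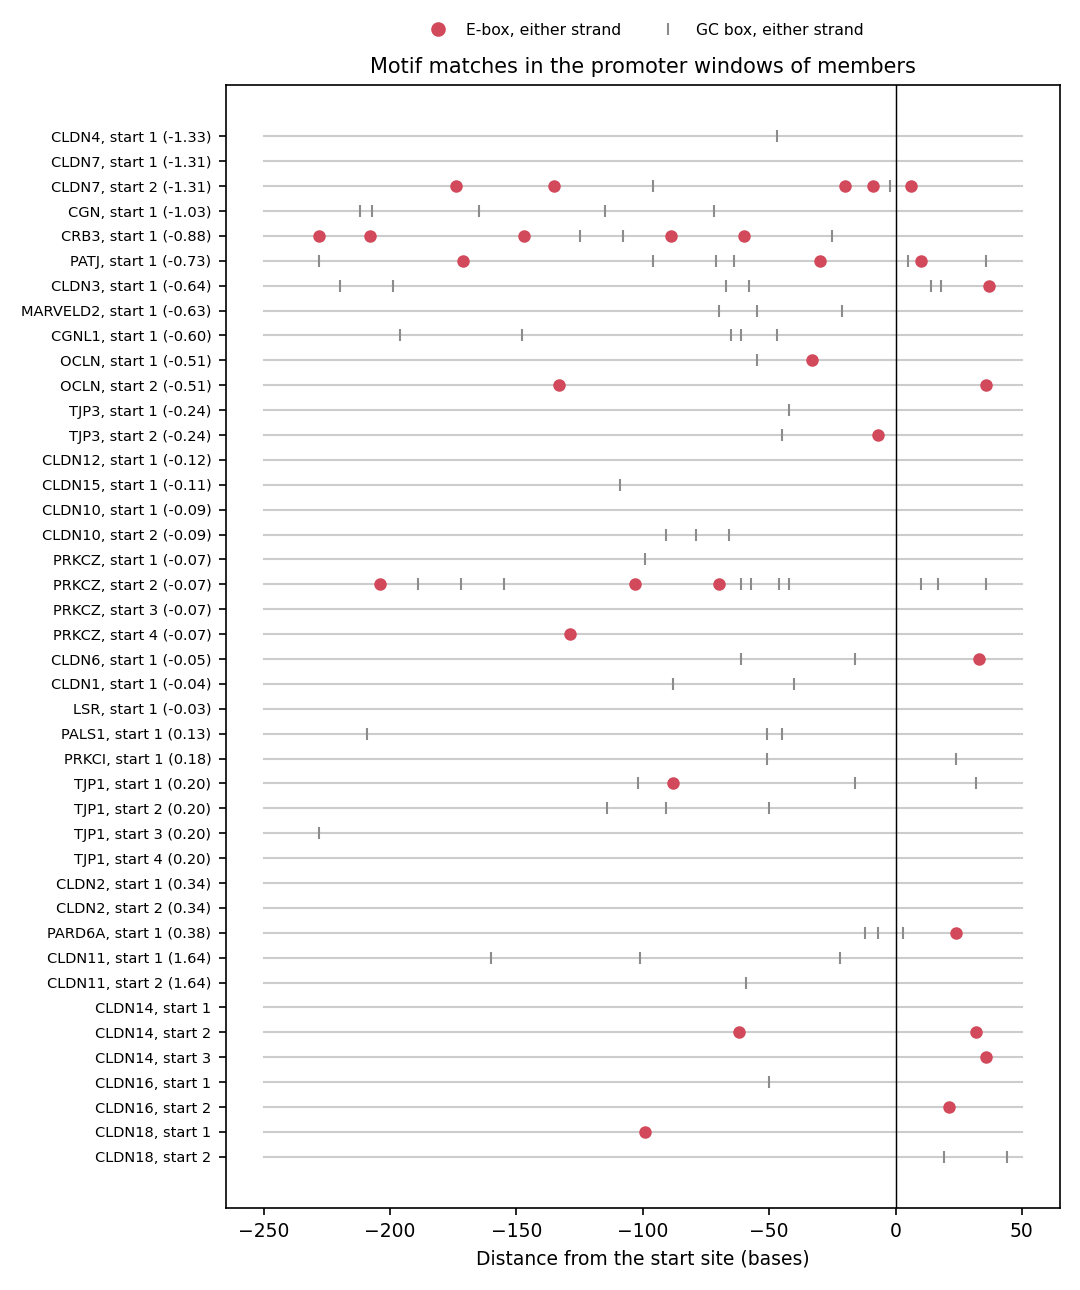
Position of motif matches relative to the start site (x axis, bases) in the 42 promoter windows of 26 members, ordered by the difference in log2 signal given in brackets, with members near background last and without a value. Red circles are CACCTG or CAGGTG and grey ticks are GGGCGG or CCGCCC. The circles crowd in the second CLDN7 window and in the CRB3 and PATJ windows, but CLDN4 and CGN near the top have none, and the second PRKCZ window, at −0.07, has 3.

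The direction of the 13 members that were 0.5 or more from 0 was the same under all 11 other ways of processing that were run. Several of these could not turn it. The looser background filters and keeping outlier spots left every measured member unchanged, and the matrix values moved none by more than 0.0013. For members with 1 probe, the other probe summaries give the same value. CLDN4 ranged from −1.45 to −1.29, CLDN7 from −1.44 to −1.27 and CLDN11 from 1.44 to 1.69. CGN ranged from −1.16 to −0.98 and so fell on either side of 2-fold, as did MARVELD3 with −1.04 to −0.81. OCLN moved most relative to its size, from −0.57 to −0.34. The sign turned for CLDN1, CLDN5, CLDN19, LSR and SCRIB, all of which lay within 0.12 of 0, so for these no direction is given.

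**Figure D5:**
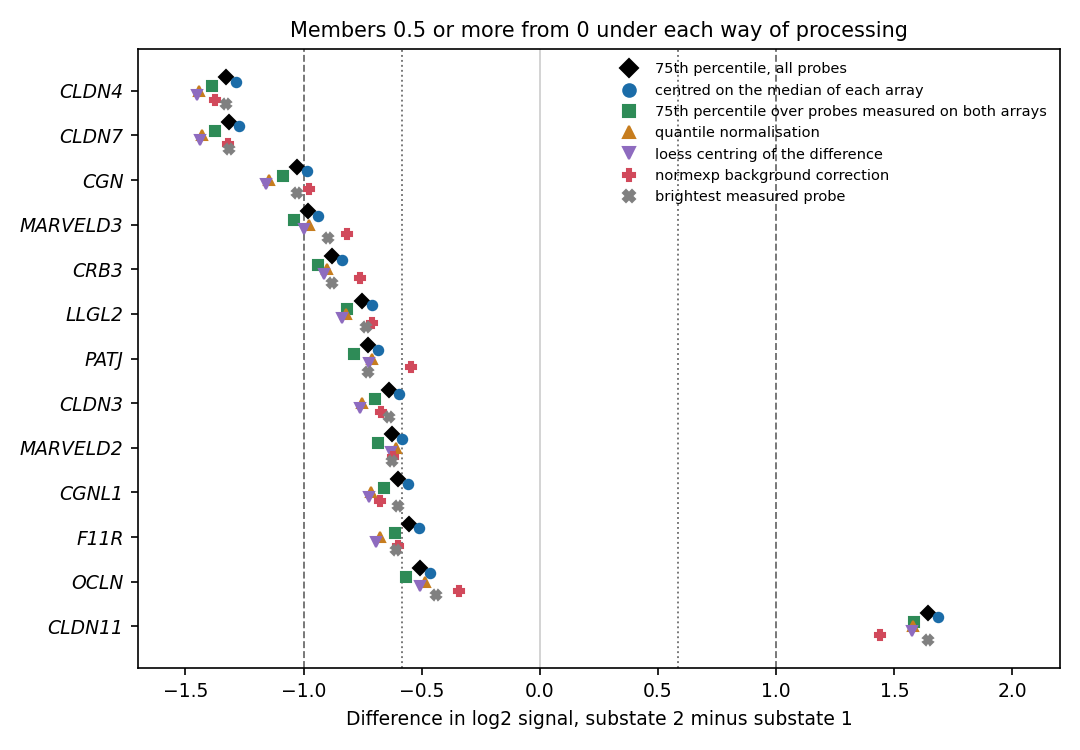
Difference in log2 signal (x axis, substate 2 minus substate 1) of the 13 members that were 0.5 or more from 0, under the reported processing (black diamonds) and 6 others (coloured symbols). Dashed lines mark 2-fold and dotted lines 1.5-fold. Symbols of a gene lie close together, and those of CGN and MARVELD3 straddle the 2-fold line.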

How the data were processed

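H9 messenger RNA was labelled with Cy3, per the labels, and hybridised to 1 Agilent SurePrint G3 Human array per substate. The authors deposited scanner output in which Feature Extraction 11.5.1.1 gave each spot a background-subtracted processed intensity, and a series matrix of log2 values that, per their methods, was shifted by the 75th percentile in GeneSpring GX. These log2 values, deposited by the authors, and those computed here differed by 1 constant per array within 0.01 for 100% of 58201 probes.

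Intensities under 1 were set to 1 (0 spots), outlier spots were left out, spots of a probe were averaged on the log2 scale, and the 75th percentile of the array over all non-control probes was subtracted. A gene value was the mean over its probes well above background and unsaturated on both arrays. Probes were named through their RefSeq accession in a table for GRCh38.p14, which matched 31104 of 58201 probes. The array was annotated on hg19, so the table gave names, chromosomes and gene order only. With 1 array per group no test was run, differences are described by size (2-fold, and 1.5-fold added later), and precision is limited by the number of arrays. The Z-score followed the study, the difference minus its mean over all probes (0.0724) divided by its SD (0.633), with a limit of 2.

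All 39 members were named. Of the other tight junction and polarity lists the 5 lowest and 5 highest were named, except 1 gene that is not reported here, and CDH1, EPCAM, DSP, ZEB1, GRHL2, ESRP1 and the genes beside the claudin pairs whatever their values. Marker genes were named after their values were seen. Members and lists were chosen with earlier results of these data known. Alternatives were median centring, the percentile over probes measured on both arrays, quantile normalisation, loess centring (span 0.3), normexp (offset 50) on the median foreground and background intensities in limma 3.58.1 under R 4.3.3, the matrix values, looser filters and other probe summaries. Calculations ran in Python 3.11.15 with pandas 2.3.3 and were tested on simulated data. Protein sequences were not used here.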

Additional observations from a re-analysis of the deposited data

How the results depend on the processing

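No difference has a replicate check, so the spread between cultures of a substate is not known, and dim probes carry the larger software error. Members lower by 2-fold or more numbered 3 and ranged from 2 to 4. The count was 2 with median centring and with normexp, both without CGN. It was 4 with the percentile over measured probes, which added MARVELD3, and with no filter, which added CLDN16, near background. CLDN11 was the 1 higher member under all 11 alternatives run. The share of all genes lower by 2-fold ranged from 0.219% (normexp) to 2.99% (no filter). The share higher by 2-fold ranged from 0.231% (normexp) to 3.65% (no filter, with 39 members counted). As stated above, several of these alternatives could not change the value of a measured member. Members lower by 1.5-fold ranged from 8 to 11, while the share of all genes ranged from 1.94% (normexp) to 8.16% (no filter). With no filter on dim probes 2 of 39 members were higher by 1.5-fold, CLDN8 being near background, where 8.63% of all genes were. The median member ranged from −0.14 to −0.04. Member probes past the lower Z-score limit went from 3 to 7 when the SD was taken over probes measured on both arrays, to 15 with normexp and to 15 with the median absolute deviation, and the upper count went from 1 to 2 with that deviation. The share of all probes past the lower limit was then 3.05%, 3.50% and 12.1%. With the median absolute deviation 6.42% of all probes were past the upper limit. The 2 member probes past it were those of CLDN11 and of CLDN8, the latter near background. The cause was not tested. Normexp with an offset shrinks differences of dim probes, and under it 0.219% of genes were lower by 2-fold. The comparison of probe names through the gene name of the array was not run, since that column is not among those used here. No paired analysis was possible because there was 1 array for each substate.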

Other observations

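Of 10 endoderm markers 5 were measured on both arrays, with a median difference of 0.42, 1 of them, FOXA2, higher by 1.5-fold at 0.77, and SOX17, GATA6, HHEX and CER1 were near background on both. Of 9 trophoblast and amnion markers with a probe 3 were measured on both arrays, 1 of them, GABRP, lower by 2-fold at −1.53, while CDX2, GATA3, HAND1, ISL1 and TFAP2A were near background. Of 10 surface ectoderm markers 3 were measured on both arrays, all within 0.5 of 0, and KRT5, KRT14 and TP63 were near background. Claudins outside the member list that were near background on both arrays were CLDN17, CLDN22 and CLDN25, and CLDN20 and CLDN24 were well above background on 1 array only.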
